A study of Mus musculus with 8 samples.

Results

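The genes examined here encode the mitochondrial respiratory chain and ATP synthase. They were taken from an RNA-seq gene count table by symbol: names beginning with Nduf, Uqcr, Cox4, Cox5, Cox6, Cox7, Cox8, Atp5, mt-Nd, mt-Co, mt-Cytb or mt-Atp, and Sdha, Sdhb, Sdhc and Sdhd. Without the 7 pseudogenes whose symbols carry -ps, 110 of the 50600 genes listed met this rule, 97 encoded in the nucleus and 13 (prefix mt-) in mitochondrial DNA, and the classes were kept apart throughout. RNA came from NF1-MET cells, a mouse malignant peripheral nerve sheath tumor (MPNST) line with Nf1 loss, Met amplification and, according to the study's text, a spontaneous Cdkn2a deletion. The NF1-MET;sgP53 cells carry the same alterations and, in addition, a lentiviral CRISPR construct targeting Trp53. Both lines were kept for 24 h in DMSO (vehicle) or in 100 nM capmatinib, which inhibits the MET kinase, with 2 libraries in each of the 4 groups. Each genotype was 1 line, so p53 loss cannot be told apart from other differences between the lines, and the NF1-MET libraries may be those of the empty-vector line that the study also made. The labels call the replicates biological and the study's methods describe treatments in duplicate in multi-well plates, so p-values measure the spread between duplicates of 1 line.

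The respiratory chain lies in the inner mitochondrial membrane. Complex I (NADH dehydrogenase) and complex II (succinate dehydrogenase) feed electrons to ubiquinone, complex III passes them to cytochrome c, complex IV (cytochrome c oxidase) passes them to oxygen, and ATP synthase uses the proton gradient that complexes I, III and IV build. Complex II is encoded wholly in the nucleus, and each of the others joins nuclear subunits with subunits translated inside the organelle from mitochondrial DNA, so that their supply depends on both genomes.

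Libraries held 30116810 to 42781371 counts. Levels are given as CPM (counts scaled to library size, with edgeR's TMM factors over the 8 libraries), and changes as log2 fold changes with their standard error (SE) from edgeR's quasi-likelihood test, fitted on all genes past a filter of 10 counts in 2 libraries. A gene was called when its Benjamini-Hochberg adjusted p over all genes tested was under 0.05. Of the genes examined, 86 nuclear and 7 mt- genes were tested. Trp53, targeted in 1 line, was with vehicle at 182 and 193 CPM in NF1-MET against 97.5 and 100.0 CPM in NF1-MET;sgP53, and with capmatinib at 126 and 128 against 67.98 and 68.8 CPM. Among Schwann lineage markers, checked for the labelled tumor type, Nes was at 427 to 472 CPM, while Sox10, S100b and Ngfr were under 0.5 CPM in every library. Gm42418, a gene that overlaps ribosomal RNA, held from 1.11% to 13.1% of the counts of a library. Its share was 10.1% and 5.29% with vehicle and 11.5% and 13.1% with capmatinib in NF1-MET. In NF1-MET;sgP53 it was 7.89% and 3.16% against 10.0% and 1.11%. In bulk RNA, fewer mitochondria per cell and less RNA from each cannot be told apart, nor can changes in the cells present.

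Which of the 13 mt- genes could be measured followed a pattern along the mitochondrial genome. Counts of mt-Co1 lay between 152963 and 252614 per library. In contrast, mt-Co2, mt-Co3, mt-Atp6, mt-Atp8, mt-Nd3 and mt-Nd4l had at most 3 counts in any library, although mitochondrial DNA is transcribed as long precursors that span many genes. A row of annotated pseudogenes on chromosome 1, between 24611535 and 24616197 on the minus strand in the build of the files (mm10, GRCm38), repeats this stretch. Gm28661 matched 681 of the 684 bases of mt-Co2 (7013 to 7696 on the mitochondrial chromosome) with 0 differences, Gm28437 matched 783 of the 784 bases of mt-Co3 with 0 differences, and Gm10925 matched 678 of the 681 bases of mt-Atp6 with 0 differences. Gm28438 differed from mt-Nd3 at 1 of 345 aligned bases. The first bases of mt-Co2 and of its copy are shown because they are identical:
mt-Co2, chrM:7013-7072, plus strand: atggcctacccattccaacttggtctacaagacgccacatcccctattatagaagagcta
Gm28661, chr1:24615506-24615565, minus strand: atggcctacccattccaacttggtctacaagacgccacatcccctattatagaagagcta

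The copy of mt-Co1, Gm29216, covered 492 of the 1545 bases of that gene (5328 to 6872) with 6 differences. The stretch that holds them is shown, with the differing bases in capitals:
mt-Co1, chrM:6381-6440, plus strand: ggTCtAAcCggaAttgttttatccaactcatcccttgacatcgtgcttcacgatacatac
Gm29216, chr1:24616138-24616197, minus strand: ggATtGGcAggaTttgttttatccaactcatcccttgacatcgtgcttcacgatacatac

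Among windows of 50 bases, the length of the reads, 100% of those in mt-Co2, 99.9% in mt-Co3, 99.5% in mt-Atp6, 98.8% in mt-Nd4l and 98.0% in mt-Nd3 were found in another annotated gene. The share was 62.2% in mt-Nd4 and 51.1% in mt-Co1, 8.19% in mt-Nd2, 7.61% in mt-Nd5, and 0% in mt-Nd1, mt-Nd6 and mt-Cytb. In windows of 300 bases, nearer the length of the fragments read from both ends, it was 53.5% in mt-Nd4 and 14.4% in mt-Co1. mt-Atp8, which lies on the mitochondrial genome between mt-Co2 and mt-Atp6, had 0 or 1 count in a library and 0% of windows in another annotated gene. Only annotated transcripts were searched. The stretch of chromosome 1 between the copies Gm10925 (ending at 24614651) and Gm28661 (starting at 24614885) was therefore not searched, and whether mt-Atp8 has a copy there was not tested. The copies themselves had few counts, such as 17 to 32 for Gm28661 and 39 to 65 for Gm10925. STAR's gene counts take reads that map to 1 place only, and the part of the copies in the low counts was not tested. The 6 genes are therefore given as listed near 0, which says nothing of their expression, and levels of mt-Co1 and mt-Nd4 are best compared between libraries.

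**Figure D1:**
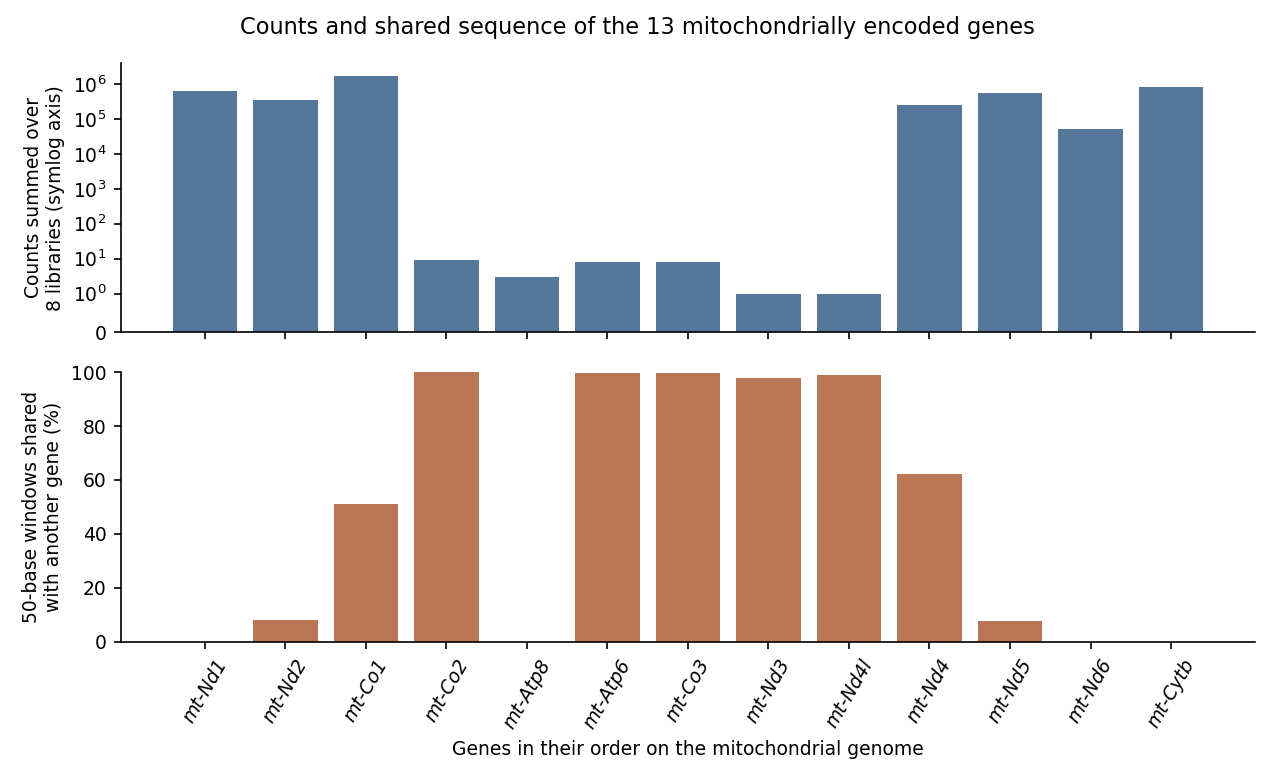
Counts of the 13 mt- genes summed over the 8 libraries (upper panel, symlog axis) and the share of their 50-base windows found in another annotated gene (lower panel, percent), in their order on the mitochondrial genome. mt-Co2, mt-Atp8, mt-Atp6, mt-Co3, mt-Nd3 and mt-Nd4l have few counts, and all of these but mt-Atp8 (0%) share 98.0% to 100% of their windows.

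The first question was which of these genes change when MET is inhibited. Most of the nuclear genes that changed were lower with capmatinib, by small amounts. In NF1-MET cells 45 of the 86 tested were lower and 16 higher, where 34.7% of all genes tested were lower and 35.5% higher. In NF1-MET;sgP53 cells 44 were lower and 10 higher, where 33.4% and 34.2% of all genes were. The median log2 fold change over the 86 genes was -0.11 in each line, against 0.00 over all genes. Summed over the nuclear genes, NF1-MET libraries held 6026 and 5961 CPM with vehicle and 5479 and 5419.9 CPM with capmatinib, and NF1-MET;sgP53 libraries 6327 and 6133 against 5567 and 5633 CPM, so that treated and untreated libraries did not overlap. Without TMM factors, scaled to library totals alone, the median over all genes moved to -0.18 and -0.12 in the lines and that of the nuclear genes to -0.30 and -0.24. The calls of nuclear genes were then 58 lower and 3 higher in NF1-MET and 43 lower and 4 higher in NF1-MET;sgP53. With the same scaling, 6381 of all 14496 genes were lower and 3508 higher in NF1-MET. In NF1-MET;sgP53 4933 of 14497 were lower and 3260 higher.

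The comparisons in the lines share no library. Calls were common over all genes (34.7% lower and 35.5% higher for NF1-MET, 33.4% and 34.2% for NF1-MET;sgP53). How many of all genes were called the same way in both lines was not counted. Agreement between the lines is therefore not read as a trait of the genes examined. Of the nuclear genes, 39 were lower in both lines and 10 were higher in both, 0 were called in opposite directions, 12 were called in NF1-MET alone and 5 in NF1-MET;sgP53 alone. The 10 genes higher in both were Ndufv3, Ndufa1, Ndufa13, Ndufaf7, Sdhc, Ndufa4, Cox6a1, Cox7a2l, Atp5s and Cox6a2. Scaled to library totals, Ndufv3, Atp5s and Cox6a2 kept their calls in both lines, Ndufa1 lost it in NF1-MET, and Sdhc, Ndufa13, Ndufa4, Ndufaf7, Cox6a1 and Cox7a2l lost it in both, with values between -0.02 and 0.14. DESeq2's Wald test did not call Ndufaf7 in either line, and its call was lost without replicate 2 of either treatment in NF1-MET and without capmatinib replicate 1 in NF1-MET;sgP53. Of the 39 genes lower in both, 24 kept the call in both lines under every alternative and with each library left out, and 15 lost it in at least 1.

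**Figure D2:**
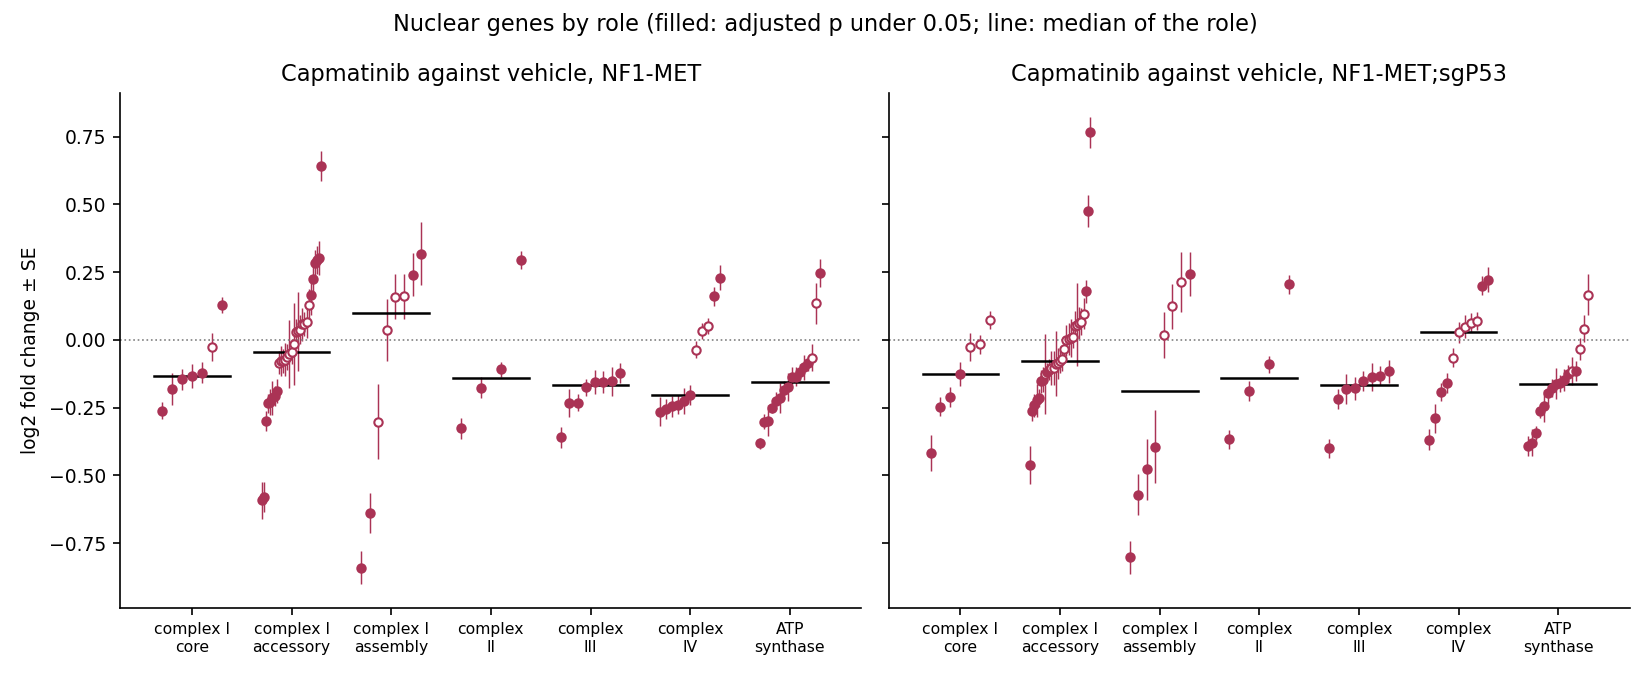
Log2 fold change ± SE (y axis) with capmatinib of each tested nuclear gene by role (x axis), in NF1-MET (left) and NF1-MET;sgP53 (right). Filled points had an adjusted p under 0.05 and black lines are medians of a role; Cox6a2, with few counts, is left out, as are Atp5s and Cox7a2l, which have none of these roles. All 8 complex III genes lie below 0 in both lines.

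Complex I is the largest complex and its genes were divided. Of its 7 nuclear core subunits, which carry the flavin and the iron-sulfur clusters, 5 were lower in NF1-MET, while 4 were lower in NF1-MET;sgP53, with a median of -0.13 in each. The shares of all genes lower were 34.7% and 33.4%. Ndufs1, the large iron-sulfur subunit, was at 96.8 and 95.9 CPM with vehicle and 81.2 and 81.4 CPM with capmatinib in NF1-MET, and at 101 and 97.4 against 83.01 and 84.1 CPM in NF1-MET;sgP53. It fell by 0.26 (SE 0.0310, adjusted p = 5.93e-09 by edgeR) and 0.25 (SE 0.0352, adjusted p = 1.95e-06 by edgeR). Ndufs7, another iron-sulfur subunit, had its larger fall in NF1-MET;sgP53, by 0.42 (SE 0.0663), from 28.3 and 24.8 to 19.5 and 20.2 CPM. In NF1-MET it fell by 0.18 (SE 0.0589), from 24.9 and 25.1 to 23.2 and 21.7 CPM, a call lost with DESeq2's Wald test and without capmatinib replicate 2, and the difference between the lines did not pass the test (adjusted p = 0.0872 by edgeR).

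The 29 accessory subunits, which surround the core and serve its assembly and stability, went both ways. In NF1-MET 8 were lower and 6 higher (median -0.04), and in NF1-MET;sgP53 9 were lower and 3 higher (median -0.08), smaller shares than those of all genes in each direction. Ndufab1 (chromosome 7, 122085403 to 122101886), the mitochondrial acyl carrier protein, had the largest fall among them and was at 21.7 and 20.8 CPM with vehicle and 14.4 and 14.1 CPM with capmatinib in NF1-MET, and at 20.4 and 21.6 against 16.1 and 14.5 CPM in NF1-MET;sgP53. The falls were 0.59 (SE 0.0669, adjusted p = 2.28e-09 by edgeR) and 0.46 (SE 0.0706, adjusted p = 4.99e-06 by edgeR). Ndufa12 was at 35.8 and 33.9 CPM with vehicle and 24.6 and 22.8 CPM with capmatinib in NF1-MET, and at 32.05 and 31.7 against 29.2 and 25.4 CPM in NF1-MET;sgP53. It fell more in NF1-MET, by 0.58 (SE 0.0554) against 0.22 (SE 0.0597), a difference that passed the test of the interaction given further on. Its fall in NF1-MET;sgP53 was -0.13 and not called without capmatinib replicate 2.

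Ndufv3 (chromosome 17, 31520115 to 31531331), a subunit of the NADH-oxidizing end of complex I, went the other way. It was at 20.8 and 20.1 CPM with vehicle and 32.6 and 32.01 CPM with capmatinib in NF1-MET, and at 20.6 and 19.3 against 34.6 and 33.3 CPM in NF1-MET;sgP53, so that all treated libraries lay above all untreated ones. This was 1.56-fold and 1.70-fold higher, a log2 fold change of 0.64 (SE 0.0558, adjusted p = 6.59e-12 by edgeR) and 0.77 (SE 0.0566, adjusted p = 5.63e-11 by edgeR), the largest rise in either line among the genes at 10 CPM or more. Ndufa1, an X-linked subunit, was at 21.4 and 19.3 CPM with vehicle and 24.7 and 25.9 CPM with capmatinib in NF1-MET, and at 18.3 and 18.3 against 25.3 and 25.6 CPM in NF1-MET;sgP53, rises by 0.30 (SE 0.0621) and 0.48 (SE 0.0601). Ndufb6 and Ndufa13 rose in NF1-MET by 0.29 (SE 0.0509) and 0.28 (SE 0.0483), and with library totals the value of Ndufb6 was 0.11 and not called. In NF1-MET;sgP53 Ndufa13 rose by 0.18 (SE 0.0438), and Ndufb6 had a value of 0.07 (adjusted p = 0.250 by edgeR). The exons of Ndufb6 and Ndufa13 overlap those of Smim27 and Tssk6 on the other strand, over 39.00% and 29.98% of their bases, and since the strand setting of the counting is not given in the sources used here, reads of these pairs cannot be told apart.

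Assembly factors are not part of the finished complex I but help to build it. Of 8, 2 rose and 2 fell in NF1-MET, and 1 rose and 4 fell in NF1-MET;sgP53, where the shares of all genes were 35.5% higher and 34.7% lower, then 34.2% and 33.4%. The 2 largest falls of all nuclear genes were here. Ndufaf4 (chromosome 4, 24898083 to 24905001) was at 29.2 and 28.02 CPM with vehicle and 16.8 and 15.7 CPM with capmatinib in NF1-MET, and at 27.7 and 28.8 against 15.97 and 16.4 CPM in NF1-MET;sgP53. It was 1.79-fold and 1.74-fold lower, a log2 fold change of -0.84 (SE 0.0617, adjusted p = 1.06e-13 by edgeR) and -0.80 (SE 0.0610, adjusted p = 9.20e-11 by edgeR). Ndufaf2 was at 17.9 and 17.6 CPM with vehicle and 11.8 and 11.3 CPM with capmatinib in NF1-MET, and at 16.96 and 17.8 against 11.9 and 11.6 CPM in NF1-MET;sgP53, falls by 0.64 (SE 0.0730) and 0.57 (SE 0.0741). For both factors the 4 vehicle libraries all lay above the 4 capmatinib libraries. Of the exonic bases of Ndufaf2, 65.6% overlap B230220B15Rik on the other strand, so its counts may hold reads of that gene.

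**Figure D3:**
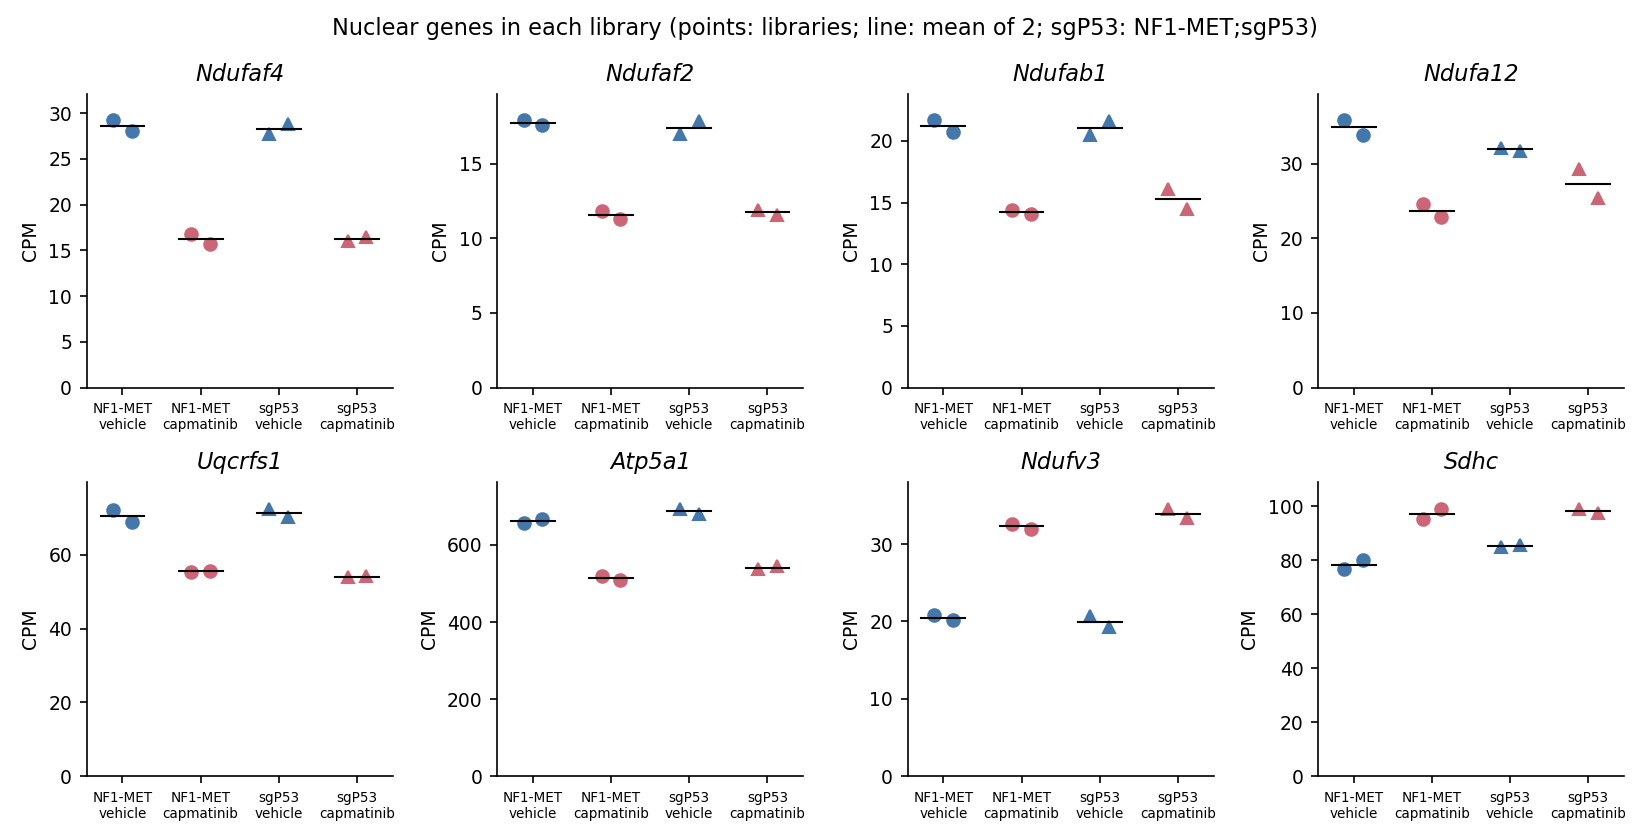
Levels in CPM (y axes, from 0) of 8 nuclear genes in each library of the 4 groups (x axes); points are libraries and lines the means of 2 libraries. Ndufv3 and Sdhc were higher and the other genes lower with capmatinib in both lines; Ndufaf4 was at 27.7 to 29.2 CPM with vehicle and 15.7 to 16.8 CPM with capmatinib.

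The bases before the start of Ndufaf4 are shown because it had the largest fall of the nuclear genes. Nuclear respiratory factor 1 (NRF1, the product of Nrf1) is known to bind the promoters of many respiratory chain genes at a palindrome. The core of that motif, GCGCA followed by any base and GCGC, was searched on both strands of the 300 bases around the start (250 before, 50 after; RefSeq, GRCm38.p6), which were at hand for 74 of the 97 nuclear genes. It was present in 18 of the 74 (24.3%) and in 4.60% of all 32851 promoters. Ndufaf2, Ndufab1, Ndufa12 and Uqcrfs1, which also fell in both lines, held none, while Cox6a1, higher in both lines, held it. The part of NRF1 in the changes was not tested. The match in Ndufaf4 is in capitals. Ndufv3, the gene with the largest rise among those at 10 CPM or more, held none and is also shown:
Ndufaf4, chr4:24897833-24898082, plus strand: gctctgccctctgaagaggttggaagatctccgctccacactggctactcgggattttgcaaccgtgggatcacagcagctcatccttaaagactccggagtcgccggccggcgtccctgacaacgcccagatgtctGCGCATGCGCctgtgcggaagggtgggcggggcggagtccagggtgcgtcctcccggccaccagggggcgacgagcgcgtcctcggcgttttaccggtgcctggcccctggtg
Ndufv3, chr17:31519981-31520114, plus strand: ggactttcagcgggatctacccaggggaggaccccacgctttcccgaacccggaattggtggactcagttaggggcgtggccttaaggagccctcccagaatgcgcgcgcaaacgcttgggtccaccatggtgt

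Of the 39 nuclear genes lower in both lines, 32 had a promoter sequence and 9 of these (28.1%) held the NRF1 letters, close to the 25.7% of the 70 tested genes with a promoter, and 1 of 7 (14.3%) did among the 10 higher in both. Other letters searched on both strands were CCGGAAG, which ETS factors such as GABPA bind, AAGATGGC of YY1 and the E-box CACGTG, present in 8.86%, 2.75% and 7.15% of all promoters. Among the genes lower in both lines 18.8% held the ETS letters, against 24.3% of tested genes, and 6.25% those of YY1, against 12.9%. The E-box was in 9.38%, against 7.14%. No share here was tested. The other 8 NRF1 matches are shown in capitals with 10 bases on each side, because they place the palindrome in subunits of complexes I, II and III and of ATP synthase:
Atp5g2, chr15:102671070-102671099, minus strand: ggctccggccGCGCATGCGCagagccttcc
Atp5g3, chr2:73911295-73911324, minus strand: gagccgcaccGCGCTTGCGCgcccagcccc
Atp5k, chr5:108434430-108434459, minus strand: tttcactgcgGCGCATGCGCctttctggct
Atp5o, chr16:91931602-91931631, minus strand: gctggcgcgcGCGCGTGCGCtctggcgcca
Ndufa8, chr2:36049349-36049378, minus strand: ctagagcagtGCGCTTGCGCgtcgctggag
Sdha, chr13:74350319-74350348, minus strand: cgtttacaggGCGCAGGCGCaccaccactc
Sdhd, chr9:50603909-50603938, minus strand: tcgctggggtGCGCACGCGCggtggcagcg
Uqcrc1, chr9:108936643-108936672, plus strand: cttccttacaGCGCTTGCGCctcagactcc

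In Atp5g3, Atp5o and Uqcrc1 the match began 12, 9 and 5 bases after the start, and in the others 30 to 98 bases before it. The letters CCGGAAG, bound by ETS factors such as GABPA, were in 17 of the 74 promoters (23%) and in 8.86% of all promoters. AAGATGGC, the core of the YY1 motif, was in 9 of the 74 (12.2%) and in 2.75% of all, and the E-box CACGTG in 5 of the 74 (6.76%) and in 7.15% of all. Both strands were searched for each, none of the 4 contains another, and a match is a run of letters and not a binding site.

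Complex II has 4 subunits, of which 3 fell and 1 rose in each line, where 34.7% of all genes fell and 35.5% rose in NF1-MET. In NF1-MET;sgP53 the shares of all genes were 33.4% and 34.2%. Sdha, the flavoprotein, was at 206 and 208 CPM with vehicle and 199 and 189.8 CPM with capmatinib in NF1-MET, and at 220.1 and 214 against 203 and 205 CPM in NF1-MET;sgP53, falls by 0.11 (SE 0.0270) and 0.09 (SE 0.0309), of which the second was not called with library totals or without vehicle replicate 1. Sdhb, the iron-sulfur subunit, fell by 0.18 (SE 0.0383) and 0.19 (SE 0.0361). Sdhd, a membrane anchor, was at 77.5 and 83.2 CPM with vehicle and 63.2 and 66.3 CPM with capmatinib in NF1-MET, and at 86.3 and 81.9 against 64.9 and 65.6 CPM in NF1-MET;sgP53, falls by 0.33 (SE 0.0377, adjusted p = 3.51e-09 by edgeR) and 0.37 (SE 0.0349, adjusted p = 4.05e-09 by edgeR). Sdhc (chromosome 1, 171127165 to 171150603), the other anchor, was at 76.7 and 79.98 CPM with vehicle and 95.2 and 98.97 CPM with capmatinib in NF1-MET, and at 85.04 and 85.7 against 99.1 and 97.6 CPM in NF1-MET;sgP53, rises by 0.29 (SE 0.0328, adjusted p = 1.75e-09 by edgeR) and 0.20 (SE 0.0343, adjusted p = 1.71e-05 by edgeR). The anchors thus moved apart in the same libraries, and neither had an overlap between vehicle and capmatinib in either line.

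Where 34.7% (NF1-MET) and 33.4% (NF1-MET;sgP53) of all genes were lower, the nuclear part of complex III moved one way. All 8 of its subunits measured here were lower in both lines, with log2 fold changes between -0.36 and -0.12 in NF1-MET and between -0.40 and -0.12 in NF1-MET;sgP53. Of these, 4 lost a call in some alternative. In NF1-MET Uqcr10 was not called by DESeq2's Wald test or without capmatinib replicate 2 (-0.06), nor Uqcrh without vehicle replicate 1 (-0.06). In NF1-MET;sgP53 DESeq2's Wald test did not call Uqcr11 or Uqcrq, both lost the call without vehicle replicate 1 and 1 of the capmatinib replicates, and Uqcr10 lost it without capmatinib replicate 1. Uqcrfs1 (chromosome 13, 30540308 to 30545362), the Rieske iron-sulfur protein that hands electrons on toward cytochrome c, was at 72.2 and 68.9 CPM with vehicle and 55.4 and 55.7 CPM with capmatinib in NF1-MET, and at 72.5 and 70.3 against 53.9 and 54.2 CPM in NF1-MET;sgP53. It fell by 0.36 (SE 0.0375, adjusted p = 3.87e-10 by edgeR) and 0.40 (SE 0.0353, adjusted p = 1.16e-09 by edgeR). The core protein Uqcrc1 fell by 0.23 (SE 0.0301) and 0.22 (SE 0.0360). Its partner Uqcrc2 fell by 0.18 (SE 0.0303) and 0.13 (SE 0.0350). Summed over the 8 genes, the vehicle libraries were at 528 to 556 CPM and the capmatinib libraries at 469 to 484 CPM.

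The step from complex III to complex IV is completed by genes whose symbols fall outside the rule. Cyc1, the cytochrome c1 of complex III, was at 86.6 and 91.4 CPM with vehicle and 62.5 and 63.7 CPM with capmatinib in NF1-MET, and at 95.3 and 92.5 against 63.3 and 67.8 CPM in NF1-MET;sgP53, falls by 0.51 (SE 0.0352) and 0.52 (SE 0.0371). Cycs, the somatic cytochrome c that carries electrons between complexes III and IV and also acts in apoptosis, was at 69.1 and 69.9 CPM with vehicle and 39.2 and 39.9 CPM with capmatinib in NF1-MET, and at 66.5 and 66.9 against 40.9 and 38.2 CPM in NF1-MET;sgP53. It fell by 0.83 (SE 0.0396, adjusted p = 1.57e-18 by edgeR) and 0.75 (SE 0.0405, adjusted p = 1.99e-13 by edgeR), with no overlap between treated and untreated libraries of either gene.

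Of the 18 nuclear complex IV genes 12 were tested, and 6 were lower and 3 higher in NF1-MET, and 4 lower and 3 higher in NF1-MET;sgP53. Of all genes, 34.7% were lower in NF1-MET. In NF1-MET;sgP53 the share of complex IV genes lower, 33.3%, was that of all genes (33.4%), and the share higher, 25.0% in each line, was below theirs (35.5% and 34.2%). Cox5a, Cox7a2, Cox7b and Cox7c were lower in both lines, of which Cox7a2, the ubiquitous counterpart of Cox7a1, fell by 0.20 (SE 0.0374) and 0.16 (SE 0.0363). Of the 50-base windows of Cox7c and Cox5b, 27.9% and 25.9% were found in another annotated gene, but 0% of their windows of 300 bases, nearer the length of the sequenced fragments. Cox5a, which lies on the matrix side of the enzyme, was at 61.8 and 61.8 CPM with vehicle and 51.3 and 53.9 CPM with capmatinib in NF1-MET, and at 69.4 and 65.7 against 52.1 and 52.5 CPM in NF1-MET;sgP53, falls by 0.24 (SE 0.0389) and 0.37 (SE 0.0376). Ndufa4, named as a complex I gene but now placed in complex IV, was at 34.2 and 34.2 CPM with vehicle and 40.6 and 40.5 CPM with capmatinib in NF1-MET, and at 38.9 and 36.5 against 42.7 and 45.3 CPM in NF1-MET;sgP53, rises by 0.23 (SE 0.0466) and 0.22 (SE 0.0472). Cox6a1, the ubiquitous form of its subunit, rose by 0.16 (SE 0.0356) and 0.20 (SE 0.0356), although with library totals the value in NF1-MET was -0.02. Cox7a2l, a factor of respiratory supercomplexes, was at 41.97 and 42.03 CPM with vehicle and 49.1 and 49.8 CPM with capmatinib in NF1-MET, and at 41.8 and 39.3 against 47.8 and 49.4 CPM in NF1-MET;sgP53, rises by 0.22 (SE 0.0424) and 0.26 (SE 0.0438). Cox8a fell in NF1-MET by 0.24 (SE 0.0353), with -0.07 (adjusted p = 0.0940 by edgeR) in NF1-MET;sgP53. Cox6b1, the counterpart of Cox6b2, had values of -0.04 and 0.03 (adjusted p = 0.312 and 0.539 by edgeR). Cox4i1, the ubiquitous form of subunit IV, was at 156 to 169.9 CPM over all libraries, with values of 0.03 and 0.07 (adjusted p = 0.341 and 0.0586 by edgeR), the first of which was -0.15 with library totals.

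Tissue-restricted forms of complex IV subunits had few or no counts. Cox4i2 had 0 to 3 counts per library, Cox6b2 1 to 5, Cox7a1 1 to 6 and Cox8c 0 or 1, and Cox7b2 and Cox8b had 0 in each, which allows up to 0.0702 to 0.108 CPM (3 counts). Ndufa4l2, a paralogue of Ndufa4, had 0 to 4 counts. Cox6a2, the striated muscle form of Cox6a1, had 2 and 0 counts with vehicle and 5 and 13 with capmatinib in NF1-MET, and 0 and 4 against 14 and 3 in NF1-MET;sgP53, where the groups overlapped. It was called higher in both lines (adjusted p = 0.00225 and 0.0439 by edgeR), a call that replicate 2 of capmatinib decided in NF1-MET and replicate 1 of either treatment in NF1-MET;sgP53, where DESeq2's Wald test and the fit with a replicate block also lost it, and is given without a fold change at these counts. The 8 striated muscle markers summed to 1.16 to 2.33 CPM in the vehicle and 0.275 to 0.397 CPM in the capmatinib libraries. Tnnt2 made up 1.08 to 2.28 CPM and 0.193 to 0.325 CPM of these, and Des was at 0.113 and 0.0826 CPM in treated NF1-MET;sgP53 cells and at 0 in the other 6 libraries. Myh7, Myog and Myod1 were at 0, and their part in the counts of Cox6a2 was not tested. Cox6c2, Ndufa11b, Ndufb4c and Ndufs6b, annotated as processed pseudogenes, had 0 to 9 counts per library.

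ATP synthase was lower in most of its parts. For NF1-MET 34.7% of all genes were lower and 35.5% higher, and the NF1-MET;sgP53 shares were 33.4% and 34.2%. Of 16 nuclear subunits 13 were lower and 1 higher in NF1-MET, and 12 were lower and 0 higher in NF1-MET;sgP53, with a median of -0.16 in each. Summed, they went from 2698 and 2685 CPM to 2321 and 2285 CPM in NF1-MET and from 2890.1 and 2780.1 CPM to 2366 and 2402 CPM in NF1-MET;sgP53. Atp5a1 and Atp5b, the alpha and beta subunits of the catalytic head, had the highest levels of all nuclear genes per kilobase of transcript in NF1-MET with vehicle, at 268 and 519.7 CPM per kb. Atp5a1 was at 658 and 667 CPM with vehicle and 519 and 509.6 CPM with capmatinib in NF1-MET, and at 694 and 681 against 537 and 545 CPM in NF1-MET;sgP53, falls by 0.38 (SE 0.0216, adjusted p = 1.42e-16 by edgeR) and 0.34 (SE 0.0257, adjusted p = 6.64e-11 by edgeR). Atp5b was at 1005 and 986 CPM with vehicle and 853 and 839.7 CPM with capmatinib in NF1-MET, and at 1075 and 1027 against 869 and 884 CPM in NF1-MET;sgP53, falls by 0.25 (SE 0.0198) and 0.26 (SE 0.0251).

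The 3 genes for the proton-carrying c subunit encode the same mature protein from different precursors, and all of them fell in both lines. Atp5g3 was at 165 and 165 CPM with vehicle and 135 and 136 CPM with capmatinib in NF1-MET, and at 184 and 171 against 132 and 138 CPM in NF1-MET;sgP53, falls by 0.30 (SE 0.0278) and 0.39 (SE 0.0374). Atp5g1 fell by 0.17 (SE 0.0513) and 0.38 (SE 0.0495), and its call in NF1-MET was lost with DESeq2's Wald test and without capmatinib replicate 2. Atp5g2 fell by 0.30 (SE 0.0573) and 0.24 (SE 0.0586). Atp5e, the small epsilon subunit, was the member that rose in NF1-MET, from 34.01 and 33.3 to 37.7 and 42.5 CPM, by 0.25 (SE 0.0518), a value that was 0.05 and not called with library totals. In NF1-MET;sgP53 Atp5e had a value of 0.04 (adjusted p = 0.488 by edgeR). Atp5s, a factor B homologue outside the core enzyme, rose by 0.83 (SE 0.158) and 0.73 (SE 0.137), at 2.12 to 4.93 CPM.

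The 7 measurable mt- genes did not move together. In NF1-MET, 4 fell and 3 rose with capmatinib, where 34.7% of all genes fell and 35.5% rose. In NF1-MET;sgP53 1 fell and 5 rose, where 33.4% and 34.2% did, and DESeq2's Wald test called 0 lower and 3 higher. mt-Nd1 (2751 to 3707 on the mitochondrial chromosome), a membrane subunit of complex I, was at 2511 and 2490.0 CPM with vehicle and 1940.3 and 1935 CPM with capmatinib in NF1-MET, and at 2030.0 and 2309 against 2021 and 2016 CPM in NF1-MET;sgP53. It fell by 0.38 (SE 0.0160, adjusted p = 3.90e-20 by edgeR) and 0.10 (SE 0.0344, adjusted p = 0.0109 by edgeR). Its neighbour mt-Nd2 was at 1414 and 1415 CPM with vehicle and 1118 and 1132 CPM with capmatinib in NF1-MET, and at 1059 and 1279 against 1153 and 1155 CPM in NF1-MET;sgP53, with groups that overlapped in the latter. It fell by 0.35 (SE 0.0181) in NF1-MET and had a value of -0.02 (adjusted p = 0.743 by edgeR) in NF1-MET;sgP53.

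The catalytic subunit of complex IV, mt-Co1, was at 5785 and 5698 CPM with vehicle and 6447 and 6574 CPM with capmatinib in NF1-MET, and at 4449 and 5302 against 6339 and 6290.2 CPM in NF1-MET;sgP53. It was higher by 0.16 (SE 0.0139) and 0.37 (SE 0.0431), mt-Nd4 by 0.10 (SE 0.0200) and 0.35 (SE 0.0523), and mt-Nd5 by 0.18 (SE 0.0171) and 0.48 (SE 0.0680), but with library totals the values of mt-Co1, mt-Nd4 and mt-Nd5 in NF1-MET were -0.02, -0.09 and -0.0082. In NF1-MET;sgP53 library totals left mt-Nd5 (0.35) as the mt- gene called higher, while mt-Co1 (0.25), mt-Nd4 (0.22), mt-Nd6 (0.19) and mt-Cytb (0.10) were not called, nor was mt-Nd1 (-0.23). mt-Cytb, the complex III subunit made in the organelle, was at 3064 and 3063 CPM with vehicle and 2879.6 and 2986 CPM with capmatinib in NF1-MET, and at 2286 and 2728 against 2941 and 2933 CPM in NF1-MET;sgP53. It fell by 0.08 (SE 0.0162) in NF1-MET and was higher by 0.23 (SE 0.0438) in NF1-MET;sgP53. mt-Nd6, the gene on the other strand of the mitochondrial genome, was at 179 and 167 CPM with vehicle and 157 and 156 CPM with capmatinib in NF1-MET, and at 136 and 197 against 176 and 237 CPM in NF1-MET;sgP53, with groups that overlapped in the latter. It fell by 0.16 (SE 0.0299) in NF1-MET and was called higher by 0.31 (SE 0.110) in NF1-MET;sgP53, where the value was 0.06 and not called without capmatinib replicate 2, and where DESeq2's Wald test did not call it (adjusted p = 0.450).

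**Figure D4:**
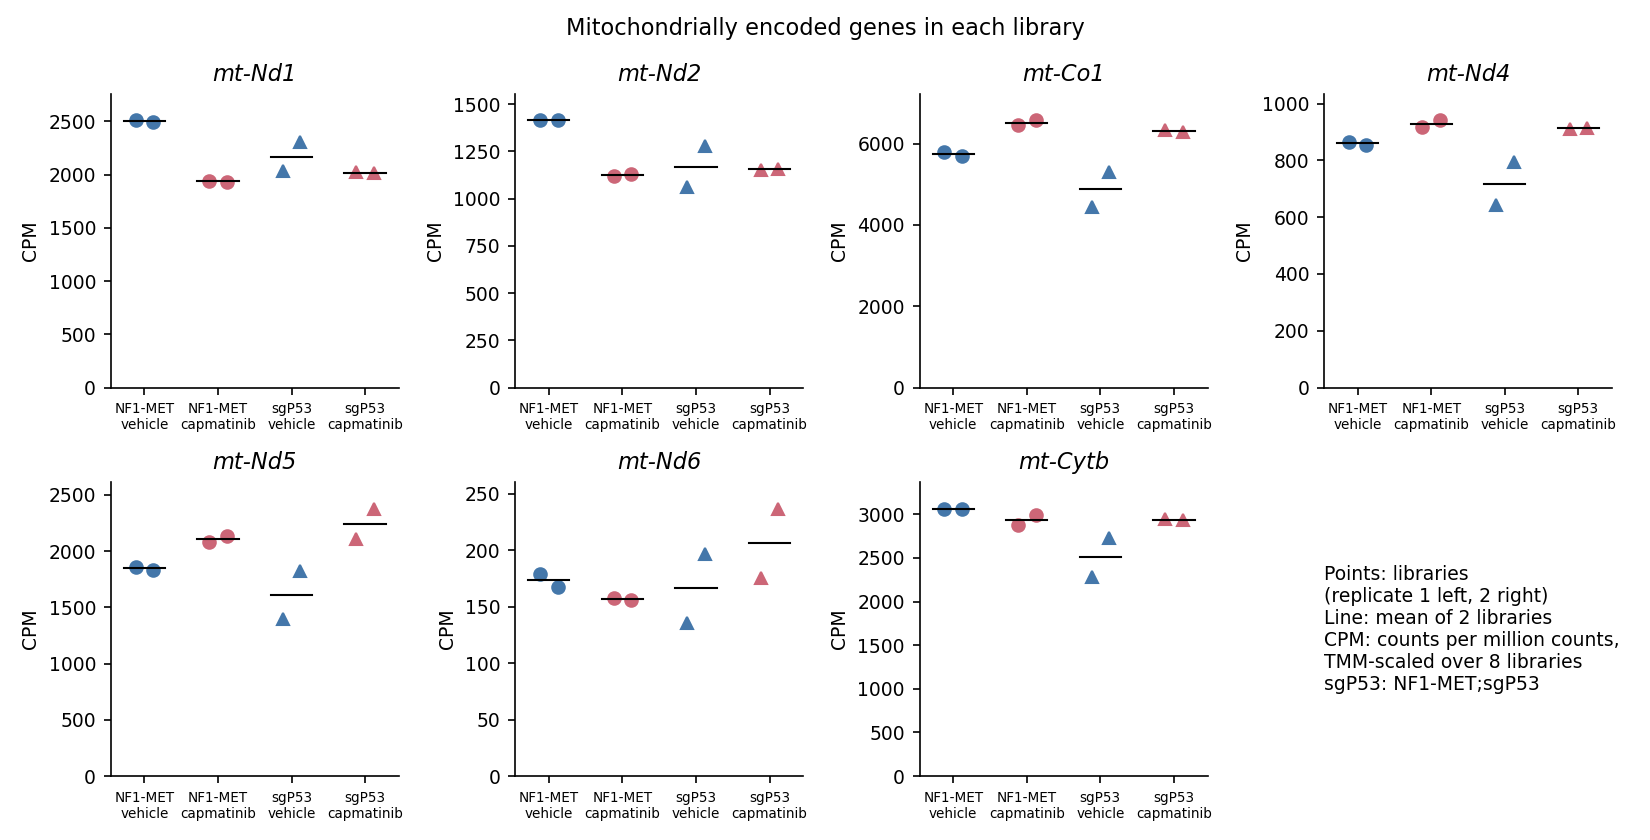
Levels in CPM (y axes, from 0) of the 7 measurable mt- genes in each library of the 4 groups (x axes); points are libraries and lines the means of 2 libraries. The vehicle replicates of NF1-MET;sgP53 lie apart in every panel, and in NF1-MET mt-Nd1 and mt-Nd2 are lower with capmatinib while mt-Co1 is higher, a direction that turned with library totals.

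Replicate 1 of NF1-MET;sgP53 with vehicle stood apart in these genes. The mt- genes summed to 12000.1 and 14428 CPM in replicates 1 and 2 of that group, and to 15519.5 to 15923 CPM in the other 6 libraries. Without replicate 1 the values with capmatinib in NF1-MET;sgP53 were -0.19 for mt-Nd1, -0.15 for mt-Nd2, 0.25 for mt-Co1, 0.20 for mt-Nd4, 0.30 for mt-Nd5, 0.07 for mt-Nd6 and 0.11 for mt-Cytb, with 4 called higher and 2 lower. Without replicate 2 in its place, mt-Nd1 was not called and mt-Nd2 had 0.12. Among the nuclear genes 10 were higher and 36 lower without replicate 1.

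**Figure D5:**
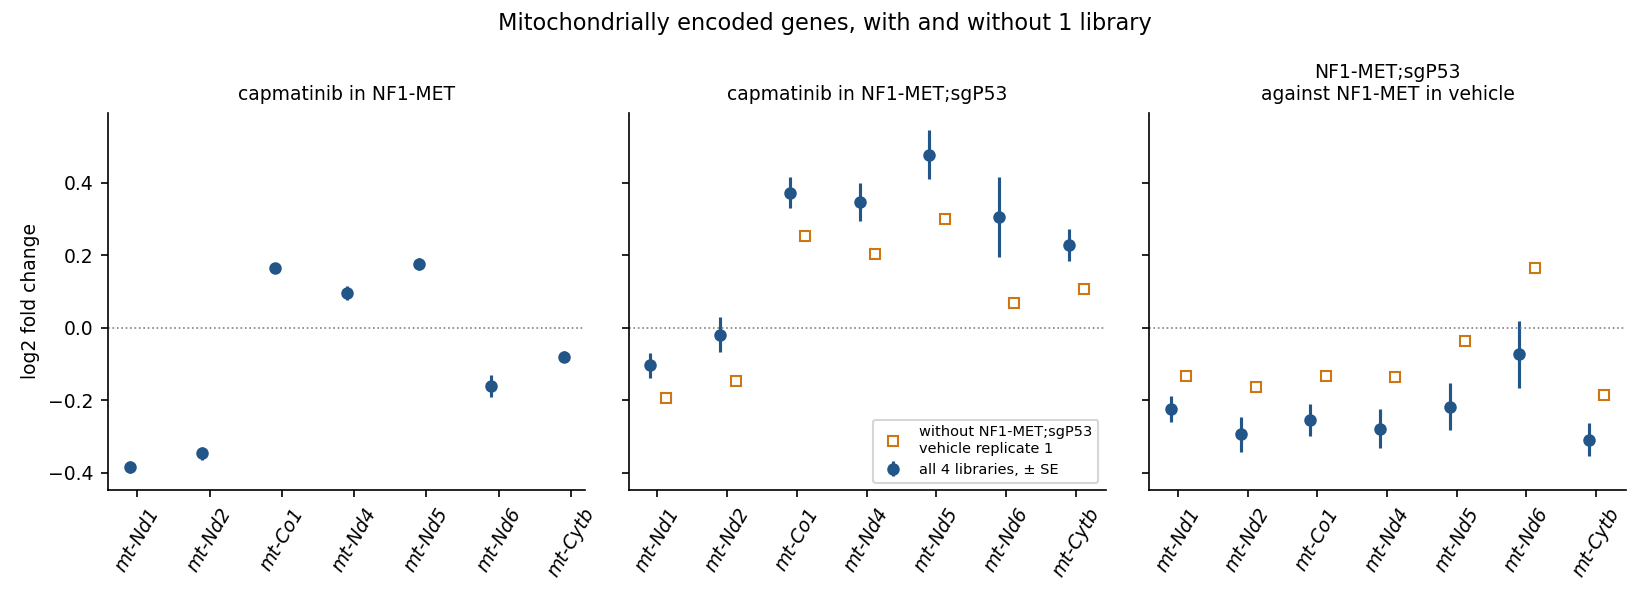
Log2 fold changes (y axis) of the 7 mt- genes (x axis) in 3 comparisons, with all libraries (filled, ± SE) and, in the comparisons that use it, without replicate 1 of NF1-MET;sgP53 with vehicle (open squares). mt-Nd1 and mt-Nd2 lie lowest in both capmatinib comparisons, and in the comparison of the lines mt-Nd6 goes from -0.07 to 0.17 without that library.

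Ratios of mt- genes within a library do not depend on the scaling. The level of mt-Nd1 relative to mt-Co1 stood at 0.434 and 0.437 with vehicle and 0.301 and 0.294 with capmatinib in NF1-MET, and at 0.456 and 0.436 against 0.319 and 0.321 in NF1-MET;sgP53. The ratio of mt-Nd2 to mt-Co1 was 0.238 to 0.248 in the vehicle libraries and 0.172 to 0.184 in the capmatinib libraries, and that of mt-Cytb to mt-Co1 was 0.514 to 0.538 and 0.447 to 0.466. For these ratios the 4 vehicle and 4 capmatinib libraries did not overlap, the replicate that stood apart included. The differences of the log2 ratios, capmatinib minus vehicle, were -0.51, -0.45 and -0.19. Each had p = 0.0286 by a two-sided exact permutation test over both lines, the smallest that 4 against 4 allows. Adjusted over the 7 ratios computed this was 0.05, which is not under the threshold. The test permuted libraries across the lines and took the duplicates of each line as 4 replicates of a treatment. Its p-values thus ignore the line, and no conclusion is drawn from them. For mt-Nd4 and mt-Nd5 the differences were -0.05 and 0.06 (p = 0.0571 and 0.371 by the same exact permutation test), and the groups overlapped. The ratio of mt-Nd1 to mt-Nd5 was 1.27 to 1.45 with vehicle and 0.848 to 0.960 with capmatinib, a difference of -0.57 (p = 0.0286 by the exact permutation test, 0.05 adjusted). That of mt-Nd6 to mt-Nd5 differed by -0.25 (p = 0.114 by the exact permutation test), with groups that overlapped. On the mitochondrial genome mt-Nd1 and mt-Nd2 come first of these genes after the ribosomal RNA genes. The large ribosomal RNA mt-Rnr2 fell as well, by 0.65 (SE 0.0188) in NF1-MET and 0.51 (SE 0.0283) in NF1-MET;sgP53. The small ribosomal RNA mt-Rnr1 was at 208 and 184 CPM with vehicle and 188 and 193 CPM with capmatinib in NF1-MET, and at 172 and 158 against 174 and 124 CPM in NF1-MET;sgP53. Its values of -0.06 and -0.15 were not called (adjusted p = 0.157 and 0.116 by edgeR), and the groups overlapped in both lines. Together the ribosomal RNAs mt-Rnr1 and mt-Rnr2 held 0.144% to 0.163% of counts with vehicle and 0.0941% to 0.102% with capmatinib, and since they are mostly lost in a poly(A) capture, the part of the capture in these values was not tested.

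Genes that control the respiratory chain are given from lists written with earlier results known, and their counts are read against the shares of all genes. These were 34.7% lower and 35.5% higher for NF1-MET, with 33.4% lower and 34.2% higher for NF1-MET;sgP53. Of 8 tested regulators 0 rose and 6 fell in NF1-MET, and 0 rose and 7 fell in NF1-MET;sgP53, with a median of -0.37 in each. Nrf1 was at 39.9 and 40.8 CPM with vehicle and 32.3 and 31.5 CPM with capmatinib in NF1-MET, and at 42.3 and 43.6 against 30.5 and 30.001 CPM in NF1-MET;sgP53, falls by 0.36 (SE 0.0479) and 0.50 (SE 0.0465). Gabpa, the DNA-binding part of the factor also known as NRF2, fell by 0.35 (SE 0.0308) and 0.23 (SE 0.0352). Esrra, a nuclear receptor that acts on oxidative metabolism genes, fell by 0.40 (SE 0.0685) and 0.46 (SE 0.0738). Pprc1, a coactivator of the PGC-1 family, was at 95.4 and 95.4 CPM with vehicle and 71.8 and 76.4 CPM with capmatinib in NF1-MET, and at 96.2 and 99.8 against 72.1 and 72.5 CPM in NF1-MET;sgP53, falls by 0.38 (SE 0.0334) and 0.44 (SE 0.0349). The better known members of that family were scarce, with 5 to 20 counts per library for Ppargc1a and 7 to 39 for Ppargc1b.

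Of 16 genes of mitochondrial DNA maintenance and transcription 8 were lower and 1 higher in NF1-MET, and 9 lower and 1 higher in NF1-MET;sgP53. Tfam, which packages the genome and starts its transcription, fell by 0.24 (SE 0.0515) and 0.35 (SE 0.0490). The polymerase Polrmt fell by 0.33 (SE 0.0599) and 0.27 (SE 0.0590), and its partner Tfb2m by 0.28 (SE 0.0765) and 0.37 (SE 0.0745). Of 18 genes that process or stabilize mitochondrial RNA 15 were lower in each line, with 2 higher in NF1-MET against 1 in NF1-MET;sgP53 (medians -0.45 and -0.58). Lrpprc, which stabilizes mitochondrial messenger RNAs, fell by 0.66 (SE 0.0339) and 0.71 (SE 0.0349). Genes of mitochondrial ribosomal proteins, on which translation of the mt- genes depends, had 59 lower and 1 higher of 77 in NF1-MET and 62 lower and 0 higher in NF1-MET;sgP53, with a median of -0.33 in each. Of 23 genes of the import translocases 16 were lower in NF1-MET, 18 were lower in NF1-MET;sgP53, and 0 were higher in either.

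The next question was whether these genes differ between the lines. With vehicle, of the 86 nuclear genes 7 were higher and 2 lower in NF1-MET;sgP53 than in NF1-MET, where 10.9% of all genes were higher and 12.3% lower. Ndufb6 had the largest difference among the genes called, at 28.01 and 28.2 CPM in NF1-MET and 33.6 and 35.8 CPM in NF1-MET;sgP53 (log2 0.29, SE 0.0513, adjusted p = 0.000283 by edgeR). Atp5e, Ndufb5, Atp5f1, Cox5a, Sdhc and Atp5c1 were higher by 0.08 to 0.16, and Ndufa12 and Cox8a were lower, with -0.15 and -0.12. The count higher was 3 without either NF1-MET vehicle library or without replicate 1 of NF1-MET;sgP53 with vehicle, and DESeq2's Wald test called 2 higher and 0 lower.

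Of the mt- genes 6 of 7 were lower in NF1-MET;sgP53 with vehicle and 0 higher, with values of -0.31 for mt-Cytb (SE 0.0452), -0.29 for mt-Nd2 (SE 0.0485), -0.28 for mt-Nd4 (SE 0.0538), -0.26 for mt-Co1 (SE 0.0446), -0.22 for mt-Nd1 (SE 0.0351) and -0.22 for mt-Nd5 (SE 0.0653). RNAs not expected in a poly(A) capture went the same way, with 2 of 6 lower, 0 higher and a median of -0.35 with vehicle, and their part in the result was not tested. The size of the mt- differences rested in part on the replicate that stood apart. Without it the median went from -0.26 to -0.13, 5 were lower, and mt-Nd6 was called higher by 0.17. DESeq2's Wald test called 0 of the 7 in either direction, while 6 had an unadjusted p under 0.05 by edgeR.

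With capmatinib fewer genes differed. Of the nuclear genes 4 were higher and 1 lower in NF1-MET;sgP53, where 5.94% and 6.34% of all genes were. Ndufa12, Ndufv2, Ndufb8 and Cox5b were higher by 0.15 to 0.21. Ndufaf8, an assembly factor of complex I, was at 7.15 and 5.93 CPM in NF1-MET and 4.42 and 5.10 CPM in NF1-MET;sgP53, a value of -0.44 (SE 0.126). Of the mt- genes mt-Nd6 was higher by 0.40 (SE 0.0800) and mt-Nd1 by 0.06 (SE 0.0156), and mt-Co1 was called lower, with -0.04 (SE 0.0120), a value that was 0.07 with library totals. DESeq2's Wald test called 0 of these genes, while 16 nuclear and 4 mt- genes had an unadjusted p under 0.05 by edgeR. Sco2, a complex IV assembly factor known as a p53 target, had 26 to 58 counts per library and was called in none of the comparisons.

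Whether the response to capmatinib depended on the line was tested as the interaction over the 8 libraries. It did for 5 of the 86 nuclear genes, with the response higher in NF1-MET;sgP53 for 2 and lower for 3, where 3.85% and 5.86% of all genes were. Ndufa12 fell less in NF1-MET;sgP53 (difference of the log2 fold changes 0.34, SE 0.0859, adjusted p = 0.0114 by edgeR). Cox5b fell by 0.23 (SE 0.0494) in NF1-MET and had a value of 0.05 in NF1-MET;sgP53 (difference 0.26, SE 0.0695). Ndufb6 had a difference of -0.24 (SE 0.0722), Atp5g1 of -0.22 (SE 0.0700) and Ndufaf8 of -0.53 (SE 0.165). With library totals 0 of the 5 were called. Leaving out each of the 8 libraries in turn, the call was lost in 8 cases for Atp5g1, 5 for Ndufb6, 5 for Ndufaf8, 4 for Cox5b and 3 for Ndufa12, and in each of them without NF1-MET vehicle replicate 1 or NF1-MET;sgP53 capmatinib replicate 1. For 6 of the 7 mt- genes the response was higher in NF1-MET;sgP53, with differences of 0.19 for mt-Co1 to 0.31 for mt-Nd2. Without replicate 1 of NF1-MET;sgP53 with vehicle the median difference over the mt- genes went from 0.28 to 0.17 and 4 were called, and DESeq2's Wald test called 1. Over the 8 left-out libraries the call was lost in 6 cases for mt-Nd5, 5 for mt-Nd4, 4 for mt-Co1 and 0 for mt-Nd1, mt-Nd2 and mt-Cytb.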

How the data were processed

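RNA-seq counts of 8 libraries were analysed. The authors sequenced poly(A) RNA with 50-base paired reads, trimmed them and aligned them to mm10 with STAR, and deposited whole-number gene counts as STAR gave them, not normalized. The submitters' processing notes name bcl2fastq 1.9.0, Trim Galore 0.4.2, FastQC 0.11.7 and STAR 2.5.2b. The annotation release and the strand setting are not given in the sources used here, so overlapping genes on opposite strands cannot be told apart, and reads shared with copies may be lost. The table held 0 further columns of per-sample values.

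Groups were taken from the labels. The members and lists were chosen with earlier results of these data known. Each comparison (capmatinib against vehicle in each line, the lines in each treatment, and the interaction) was fitted on its own libraries with edgeR 4.0.16 (quasi-likelihood F test, TMM scaling, R 4.3.3, limma 3.58.1) over all genes with 10 counts in at least 2 of the 8 libraries and a count above 0 in at least 2 libraries of the comparison. The threshold was a Benjamini-Hochberg adjusted p of 0.05 over all genes tested, and SE is the log2 fold change over the square root of F. The precision of a level is set by its counts, and libraries held 30116810 to 42781371 of them. Ratios of mt- genes were tested with SciPy 1.17.1, sequences were read with Python 3.11.15 and pandas 2.3.3, and plots were drawn with matplotlib 3.10.9.

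Genes named were the mt- genes, Sdha to Sdhd, pairs of paralogous subunits, the 5 largest rises and 5 largest falls per comparison among called genes with libraries that did not overlap and at least 10 CPM, Cyc1, Cycs, 10 regulators including Sco2, and Trp53. Ndufs1, Ndufaf7, Ndufaf8, Uqcrc1, Uqcrc2, Atp5a1, Atp5b, Atp5s, Atp5c1, Cox7b, Cox7c, Lrpprc, mt-Rnr1, mt-Rnr2, Tnnt2, Des and the pyruvate genes lie outside that rule and were chosen after their values were seen. Values of some single genes are not reported here. Alternatives were DESeq2 size factors within edgeR, library totals without TMM, scaling without mt- genes and Gm42418, the DESeq2 1.42.0 Wald test, no filter or a stricter one, a block for the replicate number, 1 model over all libraries, and each library left out in turn. Same-numbered replicates did not deviate together (correlations of residuals -0.05 to 0.10), so the numbers were not taken as pairs.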

Additional observations from a re-analysis of the deposited data

Results flagged for a closer look

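For 11 genes the response to capmatinib differed between the lines by edgeR's interaction test, and their differences of log2 fold changes (NF1-MET;sgP53 minus NF1-MET) are given here with adjusted p. Among nuclear genes these were Cox5b (0.26, 0.0168), Ndufa12 (0.34, 0.0114), Ndufb6 (-0.24, 0.0317), Atp5g1 (-0.22, 0.0452) and Ndufaf8 (-0.53, 0.0418). Leaving out 1 library at a time, these nuclear calls were lost in 4, 3, 5, 8 and 5 of 8 cases, in the same order, and with library totals all 5 were. Among mt- genes they were mt-Nd1 (0.26, 0.000236), mt-Nd2 (0.31, 0.00141), mt-Co1 (0.19, 0.0292), mt-Nd4 (0.23, 0.0318), mt-Nd5 (0.28, 0.0466) and mt-Cytb (0.29, 0.00127). Without replicate 1 of NF1-MET;sgP53 with vehicle, the differences of mt-Nd1, mt-Nd2, mt-Co1 and mt-Cytb were 0.17, 0.18, 0.07 and 0.17 and still called, and those of mt-Nd4 and mt-Nd5 were 0.09 and 0.11 and not called. Over all 8 left-out libraries mt-Nd5 lost its call in 6 cases, mt-Nd4 in 5, mt-Co1 in 4 and the other mt- genes in 0, with library totals mt-Nd1, mt-Co1 and mt-Nd4 lost theirs, and DESeq2's Wald test called mt-Nd1 alone.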

How the results depend on the processing

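With DESeq2 size factors or the stricter filter, the counts of calls stayed within 1.5 times those reported. Over the named genes, 1881 of the values under alternatives other than left-out libraries kept direction and side of the threshold, 88 lost their call, 29 gained one and 7 turned. With library totals in place of TMM, capmatinib in NF1-MET gave 3 nuclear and 0 mt- genes higher, and the values of Ndufb5 (-0.16), Cox6a1 (-0.0244), Cox4i1 (-0.15), mt-Co1 (-0.0199), mt-Nd4 (-0.0895) and mt-Nd5 (-0.0082) turned. Over all genes this scaling gave 3508 of 14496 higher in NF1-MET and 3260 of 14497 in NF1-MET;sgP53. Capmatinib in NF1-MET;sgP53 then gave 4 nuclear genes higher and 1 mt- gene higher and 0 lower, the lines with vehicle 2 nuclear genes higher and 0 lower and 3 mt- genes lower, the lines with capmatinib 0 nuclear genes in either direction and 1 mt- gene higher and 0 lower (mt-Co1 turned to 0.0719), and the interaction 0 nuclear genes. DESeq2's Wald test gave 3 mt- genes higher and 0 lower for capmatinib in NF1-MET;sgP53, 2 nuclear genes higher and 0 lower and 0 mt- genes lower for the lines with vehicle, 0 genes for the lines with capmatinib, and 0 nuclear genes lower and 1 mt- gene higher for the interaction. With all 8 libraries in 1 model, 2 mt- genes were lower with capmatinib in NF1-MET, 14 nuclear genes were higher and 1 lower between the lines with vehicle, and 1 mt- gene was higher and 0 lower between the lines with capmatinib. Scaling without mt- genes and Gm42418 left 0 nuclear genes lower in the interaction, and no filter left 1. The cause of these changes was not tested.

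The replicate block gave 11 nuclear genes higher and 4 lower between the lines with vehicle, and moved no other count by over 1.5 times; the numbers share only a name, with 2 pairs.

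Leaving out each library in turn (a lone library is assumed to vary like the others), capmatinib in NF1-MET gave 13 to 17 nuclear genes higher and 38 to 45 lower, and 3 mt- genes higher and 4 lower in every case. Capmatinib in NF1-MET;sgP53 gave 8 to 10 nuclear genes higher and 36 to 45 lower, and 4 to 6 mt- genes higher and 0 to 2 lower, with mt-Nd2 at -0.15 without vehicle replicate 1 and 0.12 without vehicle replicate 2. The lines with vehicle gave 3 to 8 nuclear genes higher and 0 to 4 lower, and 0 to 1 mt- genes higher and 5 to 7 lower, with mt-Nd6 at 0.17 without replicate 1 of NF1-MET;sgP53 and -0.37 without replicate 2. The lines with capmatinib gave 2 to 5 nuclear genes higher and 0 to 1 lower, and 1 to 3 mt- genes higher and 0 to 1 lower. The interaction gave 0 to 3 nuclear genes higher and 0 to 3 lower, and 3 to 7 mt- genes higher and 0 lower. It had 0 nuclear genes without NF1-MET vehicle replicate 1 or NF1-MET;sgP53 capmatinib replicate 1, and 3 mt- genes without either NF1-MET vehicle library or NF1-MET capmatinib replicate 1. Among named genes, Ndufs7 (-0.12) and Atp5g1 (-0.14) in NF1-MET lost their call without capmatinib replicate 2, Tfb2m (-0.21) in NF1-MET without vehicle replicate 2, and Sdha (-0.07) in NF1-MET;sgP53 without vehicle replicate 1. Low counts limit what can be said of the tissue-restricted subunits, and with 2 libraries in each group a difference missing the threshold does not show that levels were alike.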

Other observations

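Of 12 genes of pyruvate entry, 7 (58.3%) were higher in each line with capmatinib, and 5 (41.7%) were lower in NF1-MET against 3 (25.0%) in NF1-MET;sgP53. Over all genes tested 35.5% were higher and 34.7% lower in NF1-MET, with 34.2% higher and 33.4% lower in NF1-MET;sgP53, and the list was not tested against others. Pdk2, a kinase that switches off pyruvate dehydrogenase, rose by 1.99 (SE 0.133) in NF1-MET and 1.99 (SE 0.117) in NF1-MET;sgP53. Pdk4, of the same family, rose by 1.07 (SE 0.116) and 1.45 (SE 0.112), Pdk1 by 0.51 and 0.62, and Pdk3 by 0.36 and 0.40. The subunits of the mitochondrial pyruvate carrier rose too, Mpc1 by 0.49 and 0.45 and Mpc2 by 0.65 and 0.55. Subunits of pyruvate dehydrogenase itself went both ways. Pdha1 rose by 0.23 and 0.28, though with library totals it had 0.05 and 0.16 and was not called, while Pdhb fell by 0.39 and 0.24 and Dlat by 0.12 and 0.18. Pdhx fell by 0.19 in NF1-MET, a call lost with DESeq2's Wald test and without replicate 2 of either treatment, with -0.11 (adjusted p = 0.216 by edgeR) in NF1-MET;sgP53. Of the phosphatases that switch the enzyme on, Pdp2 fell by 0.24 (not called by DESeq2's Wald test) and 0.30, and Pdp1 fell by 0.28 in NF1-MET, with -0.07 (adjusted p = 0.341 by edgeR) in NF1-MET;sgP53. In contrast, of 13 genes of the tricarboxylic acid cycle, which oxidizes what pyruvate dehydrogenase makes, 11 were lower in NF1-MET, 12 were lower in NF1-MET;sgP53 and 0 were higher in either, with a median of -0.22 in each.

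The counts of other lists are read against the same shares of all genes. Of the assembly factors of complex IV, 7 of 20 were lower and 6 higher in NF1-MET, and 6 lower and 3 higher in NF1-MET;sgP53, near those shares or below them. For complexes II and III, 3 of 10 went each way in NF1-MET and 2 each way in NF1-MET;sgP53, below those shares. Of 8 further complex I factors 3 were lower in NF1-MET, 4 were lower in NF1-MET;sgP53, and 2 were higher in each. Of 4 genes of ATP synthase assembly and inhibition 2 were lower and 1 higher in each line. Genes of electron carriers and ubiquinone synthesis had 8 of 18 lower and 6 higher in NF1-MET and 11 lower and 4 higher in NF1-MET;sgP53. Of 12 genes of cristae and mitochondrial dynamics 5 were lower and 6 higher in NF1-MET, and 4 lower and 5 higher in NF1-MET;sgP53. Of 6 RNAs not expected in poly(A) capture, 3 were higher and 1 lower in NF1-MET and 0 higher and 1 lower in NF1-MET;sgP53. Among markers of other cells, those of blood and immune cells summed to 1.34 to 1.93 CPM per library with vehicle and 0.831 to 1.25 CPM with capmatinib. The 1 of them tested was lower in both lines (-0.90 and -0.64). Those of endothelium summed to 0.226 to 0.358 CPM with vehicle and 0.0260 to 0.142 CPM with capmatinib, and those of epithelium to 0 to 0.187 CPM over all libraries.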
